A study of Homo sapiens with 4 samples.

Results

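LINC01356, NEAT1, MALAT1 and MIAT are 4 long noncoding RNAs, and they were read as 4 of the 36601 genes in single-cell RNA-sequencing count tables of human blastoids and of the cell aggregates from which blastoids form. Each symbol stood once in both tables, and the set was chosen by symbol with their ratios between the treated and untreated blastoid arms already in view. Those ratios are therefore described without a test. Blastoids are stem cell models of the blastocyst, with an outer trophectoderm (TE), which forms the placenta, an epiblast (Epi), which forms the body, and a primitive endoderm. All cells derived from H9, a human embryonic stem cell line, held in the naive state in PXGL medium on feeder cells that were removed before use. Naive cells were aggregated in N2B27 medium, moved to PALLY (PD0325901, A83-01, LIF, LPA and Y27632) and, for blastoids, to LPA and Y27632 alone, with 0 or 4 mM dimethyl alpha-ketoglutarate (dm-αKG), a cell-permeable form of a Krebs cycle metabolite, during the first 40 h. Both doses shared every other medium component, so the 0 mM arms are the untreated controls. Run 1 held 1 aggregate arm per dose at 40 h and 1 blastoid arm per dose at 120 h, and run 2 held 1 blastoid arm per dose, which gave 6 hashtag-labelled arms of 1 cell line. Blastoids with a single cavity were picked by hand, and each value counts unique molecular identifiers (UMIs), 1 per captured RNA molecule.

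MALAT1 and NEAT1 are made from neighbouring genes and stay in the nucleus, MALAT1 in nuclear speckles, where splicing factors gather, and NEAT1 as the RNA scaffold of paraspeckles, bodies that hold RNA-binding proteins. NEAT1 is made as a short polyadenylated form and as a long form, and only the long form builds a paraspeckle. The 3′ ends of long NEAT1 and of MALAT1 are not polyadenylated in the usual way but are cut by RNase P and folded into a triple helix of U-rich and A-rich stretches. MIAT, also called Gomafu, is a nuclear RNA of neurons and of pluripotent cells with repeats that resemble the intron branch point and bind the splicing factor SF1. For LINC01356, a long intergenic noncoding RNA, no function is given here.

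In GRCh38 with GENCODE release 44, LINC01356 (ENSG00000215866) lies on the minus strand of chromosome 1 from 112820170 to 112850643 and has 6 annotated transcripts. NEAT1 (ENSG00000245532) lies on the plus strand of chromosome 11 from 65422774 to 65445540, and MALAT1 (ENSG00000251562) lies on the same strand from 65497640 to 65508073, 52100 bases further on. MIAT (ENSG00000225783) lies on the plus strand of chromosome 22 from 26646411 to 26676475. The libraries were primed on poly(A), so 3′ ends of NEAT1 and MALAT1 and an internal A-rich stretch of MIAT are shown first, with the MIAT repeats, all in exons of noncoding transcripts, 5′ to 3′ in the sense of the RNA and read from the GRCh38 genome. Capitals mark the AATAAA polyadenylation signal in the end of short NEAT1, the A-rich end in long NEAT1 and MALAT1, the A tract in the first window of MIAT, and TACTAAC in the last window of MIAT.
NEAT1-208, short form, 3′ end, chr11:65426414-65426513, plus strand: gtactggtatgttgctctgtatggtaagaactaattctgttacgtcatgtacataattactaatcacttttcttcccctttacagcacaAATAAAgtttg
NEAT1-202, long form, 3′ end, chr11:65445441-65445540, plus strand: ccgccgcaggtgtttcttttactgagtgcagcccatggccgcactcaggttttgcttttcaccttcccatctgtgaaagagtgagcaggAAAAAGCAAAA
MALAT1-202, A-rich end, chr11:65506008-65506116, plus strand: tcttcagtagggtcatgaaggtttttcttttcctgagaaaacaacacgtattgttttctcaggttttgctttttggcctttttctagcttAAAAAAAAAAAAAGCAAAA
MIAT-218, internal A tract, chr22:26670573-26670656, plus strand: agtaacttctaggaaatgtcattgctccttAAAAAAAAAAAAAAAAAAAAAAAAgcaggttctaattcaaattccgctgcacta
MIAT-218, TACTAAC cluster, chr22:26672170-26672237, plus strand: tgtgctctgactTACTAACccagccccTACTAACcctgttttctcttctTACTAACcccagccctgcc
The MALAT1 window stops at 65506116, 1 base before a separately annotated small RNA. MIAT-218 held 7 copies of TACTAAC, of which 3 stand in the window shown. Counts per gene do not show which end or A tract a read came from, so the 2 forms of NEAT1 are summed here.

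Of the 9431 barcodes of run 1 and 15133 of run 2, 12647 passed the hashtag call, the UMI floor and the 15% limit on mitochondrial UMIs, and 28 barcode sequences occurred in both runs. Blastoid cells were called TE-like where KRT8, KRT18, GATA3 and CLDN4 summed to more UMIs than POU5F1, DPPA5, DPPA4, L1TD1 and TDGF1, and Epi-like otherwise. This gave, for 0 and 4 mM, 18 and 49 TE-like cells in run 1 and 181 and 170 in run 2, with 408, 1043, 3719 and 4804 Epi-like cells in the same order and 1201 and 1054 aggregate cells. Median UMIs per cell were 28225 to 30057.5 in run 1 and 15468 and 15827 in run 2. Trophectoderm markers outside the rule summed to 1643 to 2571 CPM (UMIs of a gene or list per 1e+06 UMIs of the sum) in TE-like and 62.0 to 68.3 CPM in Epi-like cells, so the label stood. Epiblast markers outside the rule still reached 612 to 1390 CPM in TE-like cells, 16.6 to 33.6% of the Epi-like level, and primitive endoderm markers were 191 to 350 CPM against 48.2 to 56.2 CPM, with CER1 at 0 in both. Of the epiblast sums in TE-like cells KHDC1L alone made 367 to 927 CPM. NANOG was 4.38 to 21.7 CPM in TE-like and 137 to 211 CPM in Epi-like cells, and DNMT3L was 66.9 to 143 and 81.9 to 102 CPM. According to the study, fragile trophectoderm cells were lost more than others in dissociation. The arm with 18 TE-like cells carries the widest counting intervals. A sum over cells cannot tell fewer expressing cells from less RNA per cell.

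MALAT1 was the member with the steadiest difference between blastoid cell classes. Its level in TE-like cells was 18230 and 14864 CPM at 0 and 4 mM in run 1 and 15721 and 13849 CPM in run 2. In Epi-like cells of the same arms it was 5789, 4668, 6281 and 4820 CPM. The classes did not overlap, and within each arm the TE-like level was 2.50 to 3.18-fold the Epi-like one. Over the 4 arms the log2 difference was 1.76 ± 0.0523 (SE, edgeR quasi-likelihood test with Benjamini-Hochberg adjustment, adjusted p = 9.6e-14). MALAT1 and NEAT1 were chosen with dose ratios from these same sums in view, and their adjusted p between classes does not allow for that choice. Here 49% of 12352 genes passed, 23.1% higher and 25.9% lower in TE-like cells, and 96.4% of them had a lower log2 difference than MALAT1. Scaling by library totals alone lowered the median gene by 0.23 on the log2 scale and turned 2857 higher and 3194 lower genes into 1745 and 4731, and MALAT1 and NEAT1 were higher under both.

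NEAT1 stood at 1699 and 754 CPM at 0 and 4 mM in TE-like cells of run 1 and at 1008 and 832 CPM in run 2. The Epi-like levels were 277 and 166 CPM in run 1 and 415 and 267 CPM in run 2. Every TE-like sum was above every Epi-like sum, with the ratio within arms between 2.43 and 6.13, the highest being the arm of 18 cells. The log2 difference was 2.13 ± 0.138 (edgeR adjusted p = 2.3e-09). Since run 2 Epi-like cells held more NEAT1 than run 1 Epi-like cells at either matching dose, levels are best compared within a run.

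MIAT went the other way. TE-like cells held 0 MIAT UMIs in the 18 cells of run 1 at 0 mM, where 3 counts would be 6.57 CPM, then 13 UMIs (8.05 CPM, 95% Poisson interval 4.29 to 13.8) at 4 mM, and 10 and 12 UMIs (3.35 and 4.07 CPM) in run 2. In Epi-like cells it was 13.2, 14.6, 14.96 and 13.7 CPM, a range narrower than that of any single TE-like interval. MIAT passed the filter on low counts through its Epi-like sums alone, so its class difference is described without a test. Its TE-like over Epi-like ratio was 0.550, 0.224 and 0.297 in the 3 arms with counts. In the other arm, with 0 UMIs, 3 counts would give 0.498, and the counting interval reached 0.619. The epiblast marker sums in TE-like cells were at 16.6, 33.6 and 28.0% of their Epi-like level in those 3 arms and 24.3% in the other. These sums were mostly KHDC1L, and single markers stood above or below those percentages. How much of the MIAT in TE-like cells came with epiblast RNA was not tested.

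LINC01356 had no fixed order between classes. At 0 mM it was lower in TE-like than in Epi-like cells, at 43.8 against 91.5 CPM in run 1 and 58.7 against 71.2 CPM in run 2. At 4 mM it was higher in TE-like cells, at 234 against 116 CPM in run 1 and 190 against 75.9 CPM in run 2. The TE-like over Epi-like ratio was thus 0.478 and 0.825 at 0 mM and 2.02 and 2.51 at 4 mM, opposite in sign at the 2 doses in both runs. The fitted average over doses was a log2 difference of 0.76 ± 0.233, or 0.33 without the 4 mM arm of run 2. It rests on the 4 mM TE-like sums that entered the choice of the gene and is given without a test.

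**Figure D1:**
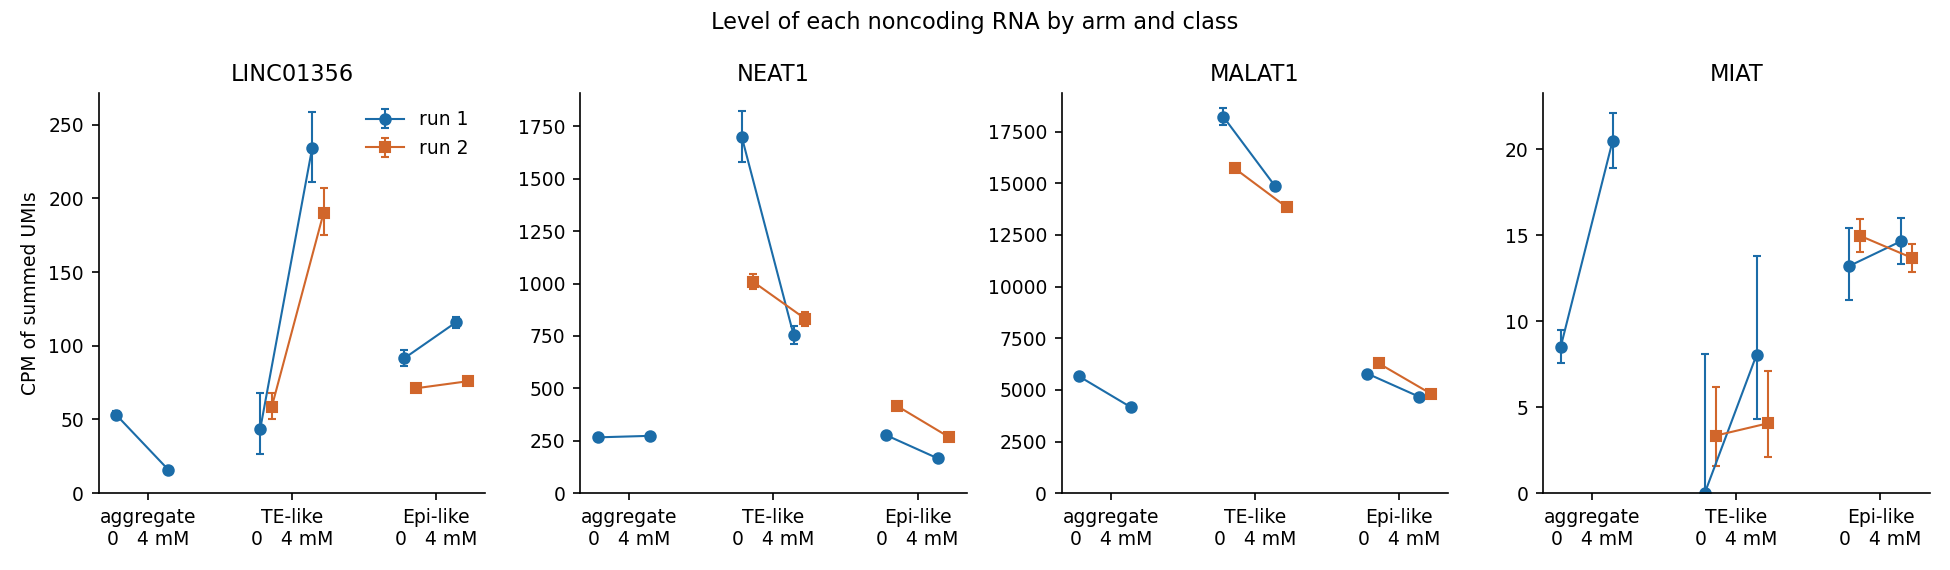
Level of each of the 4 RNAs in CPM in the aggregates, TE-like and Epi-like cells, with 1 point per arm and bars for 95% Poisson intervals that cover counting error only. MALAT1 and NEAT1 are higher in all TE-like than in all Epi-like sums, and LINC01356 in TE-like cells runs from 43.8 to 58.7 CPM at 0 mM and from 190 to 234 CPM at 4 mM.

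The dose was compared within each run, where the arms share a capture. LINC01356 in TE-like cells rested on 20 UMIs at 0 mM and 378 at 4 mM in run 1 and on 175 and 562 UMIs in run 2. The 4 mM level was 5.34-fold the 0 mM level in run 1 (counting interval 3.41 to 8.85) and 3.24-fold in run 2 (2.73 to 3.87). The 2 treated arms lay above both untreated arms. The fitted log2 difference was 1.88 ± 0.185. In Epi-like cells of the same arms the ratio was 1.27 in run 1 and 1.07 in run 2 (log2 0.20 ± 0.0646), and the levels of treated and untreated arms overlapped between runs. Leaving out the 4 mM arm of run 1, with no run term, turned the Epi-like difference to -0.07, and leaving out the 0 mM arm of run 1 or the 4 mM arm of run 2 gave 0.43 or 0.50.

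NEAT1 was lower at 4 mM in both classes and both runs. In TE-like cells the level at 0 mM was 2.25-fold that at 4 mM in run 1 and 1.21-fold in run 2, with a fitted log2 difference of -0.73 ± 0.147. In Epi-like cells it was 1.67-fold in run 1 and 1.55-fold in run 2, with a fitted difference of -0.69 ± 0.0645. The run 1 TE-like ratio rests on the arm of 18 cells, and without that arm, in a fit with no run term, the TE-like difference was -0.35, against -1.13 without the 0 mM arm of run 2. The Epi-like difference in such fits was -0.37 without the 4 mM arm of run 1 or the 0 mM arm of run 2 and -1.09 without the 4 mM arm of run 2, below 0 in each.

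MALAT1 was also lower at 4 mM in each comparison, by less. The level at 0 mM was 1.23 and 1.14-fold that at 4 mM in TE-like cells of runs 1 and 2 and 1.24 and 1.30-fold in Epi-like cells. Fitted log2 differences were -0.26 ± 0.0961 in TE-like cells, or -0.13 without the 0 mM arm of run 1, and -0.35 ± 0.0720 in Epi-like cells. In both classes the 2 untreated arms lay above both treated arms, as they did for NEAT1. MIAT in Epi-like cells had ratios of 1.11 and 0.914 in the 2 runs (log2 -0.03 ± 0.0894), a difference smaller than its error. In TE-like cells of run 2 its ratio of 1.21 had a counting interval of 0.480 to 3.13, and the counts were too low for the fit.

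**Figure D2:**
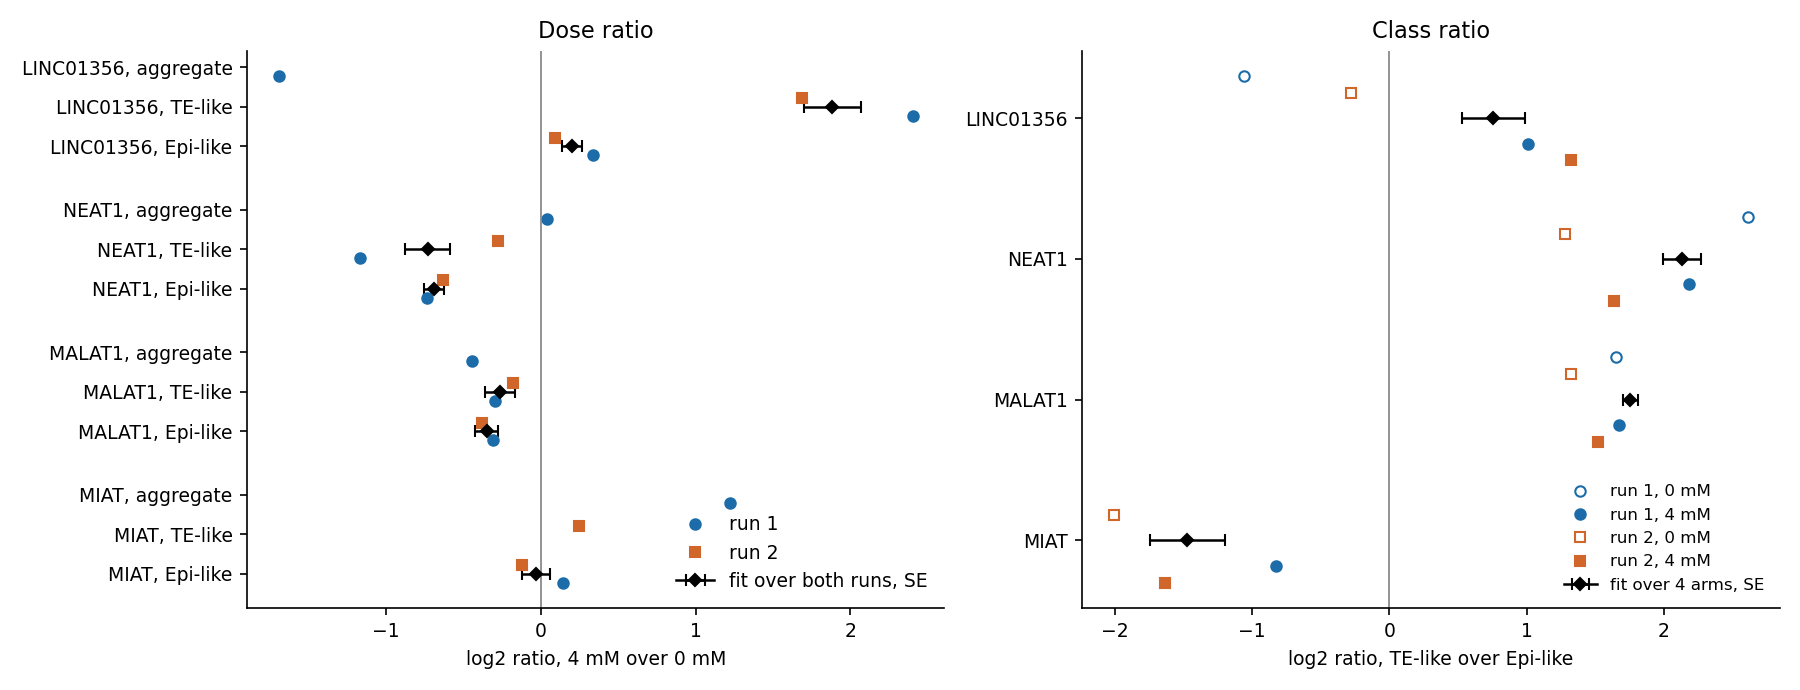
Log2 ratios of 4 over 0 mM within each run (left) and of TE-like over Epi-like cells within each arm (right) for the 4 RNAs, computed on CPM plus 0.5. The MIAT points that involve 0 UMIs in the TE-like cells of run 1 at 0 mM are left out, and LINC01356 lies below 0 in aggregates and above 0 in all blastoid dose ratios.

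The aggregates were sampled at 40 h, at the end of the exposure, and with 1 arm per dose their difference has no replicate check. LINC01356 was 53.1 CPM at 0 mM and 16.1 CPM at 4 mM, 3.31-fold lower in the treated arm. MIAT was 8.50 and 20.5 CPM, 2.41-fold higher. MALAT1 was 5652 and 4156 CPM, 1.36-fold lower, and NEAT1 was 266 and 273 CPM, a ratio of 1.03 (counting interval 0.997 to 1.06). LINC01356 therefore stood opposite to its direction in the blastoid arms, MALAT1 had the same direction, and NEAT1 was within its counting interval of no difference. Against the aggregate arm of the same run and dose, LINC01356 in 4 mM blastoids was 14.6-fold higher in TE-like and 7.23-fold higher in Epi-like cells, while at 0 mM these ratios were 0.825 (0.503 to 1.28) and 1.72. MALAT1 in Epi-like cells stayed near the aggregate level, with ratios of 1.02 and 1.12.

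The distribution over cells was read after thinning each cell to 5000 UMIs, so that the runs could be compared. LINC01356 was then found in 5.56% of untreated and 42.9% of treated TE-like cells of run 1 and in 12.7 and 34.7% of those of run 2, against 38.9, 65.3, 26.0 and 47.6% of the same cells before thinning. In Epi-like cells the thinned shares were 30.9, 35.9, 23.8 and 25.4%. Both the share of positive cells and the number of UMIs in them were thus higher in treated TE-like cells. Cells with at least 5 LINC01356 UMIs before thinning numbered 2 of 18 and 19 of 49 in run 1 and 8 of 181 and 43 of 170 in run 2, and the highest single cells held 6, 90, 32 and 37 UMIs. The tenth of TE-like cells with the most LINC01356 held 51.3 to 82.3% of its UMIs, against 37.2 to 49.1% in Epi-like cells. In aggregates the thinned share was 19.9% at 0 mM and 7.40% at 4 mM.

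NEAT1 and MALAT1 differed between classes in most cells rather than in a few. After thinning, NEAT1 was found in 82.9 to 91.8% of TE-like cells, 48.8 to 71.9% of Epi-like cells and 58.2 and 60.2% of aggregate cells. At least 5 NEAT1 UMIs were held by 24.5 to 72.2% of TE-like and 2.21 to 11.7% of Epi-like cells. MALAT1 was found in at least 99.3% of cells of every arm, so its levels carry the difference. Its thinned median was 51.5 to 72 UMIs in TE-like cells, 20 to 27 in Epi-like cells and 25 and 18 in aggregates at 0 and 4 mM. In Epi-like cells 15.7 and 14.4% of cells at 0 mM held at least 50 MALAT1 UMIs, against 4.12 and 4.81% at 4 mM. MIAT after thinning was found in 5.64 to 7.86% of Epi-like, 0 to 6.12% of TE-like, 3.58% of untreated aggregate and 10.8% of treated aggregate cells, with treated aggregates highest on this scale and in CPM.

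**Figure D3:**
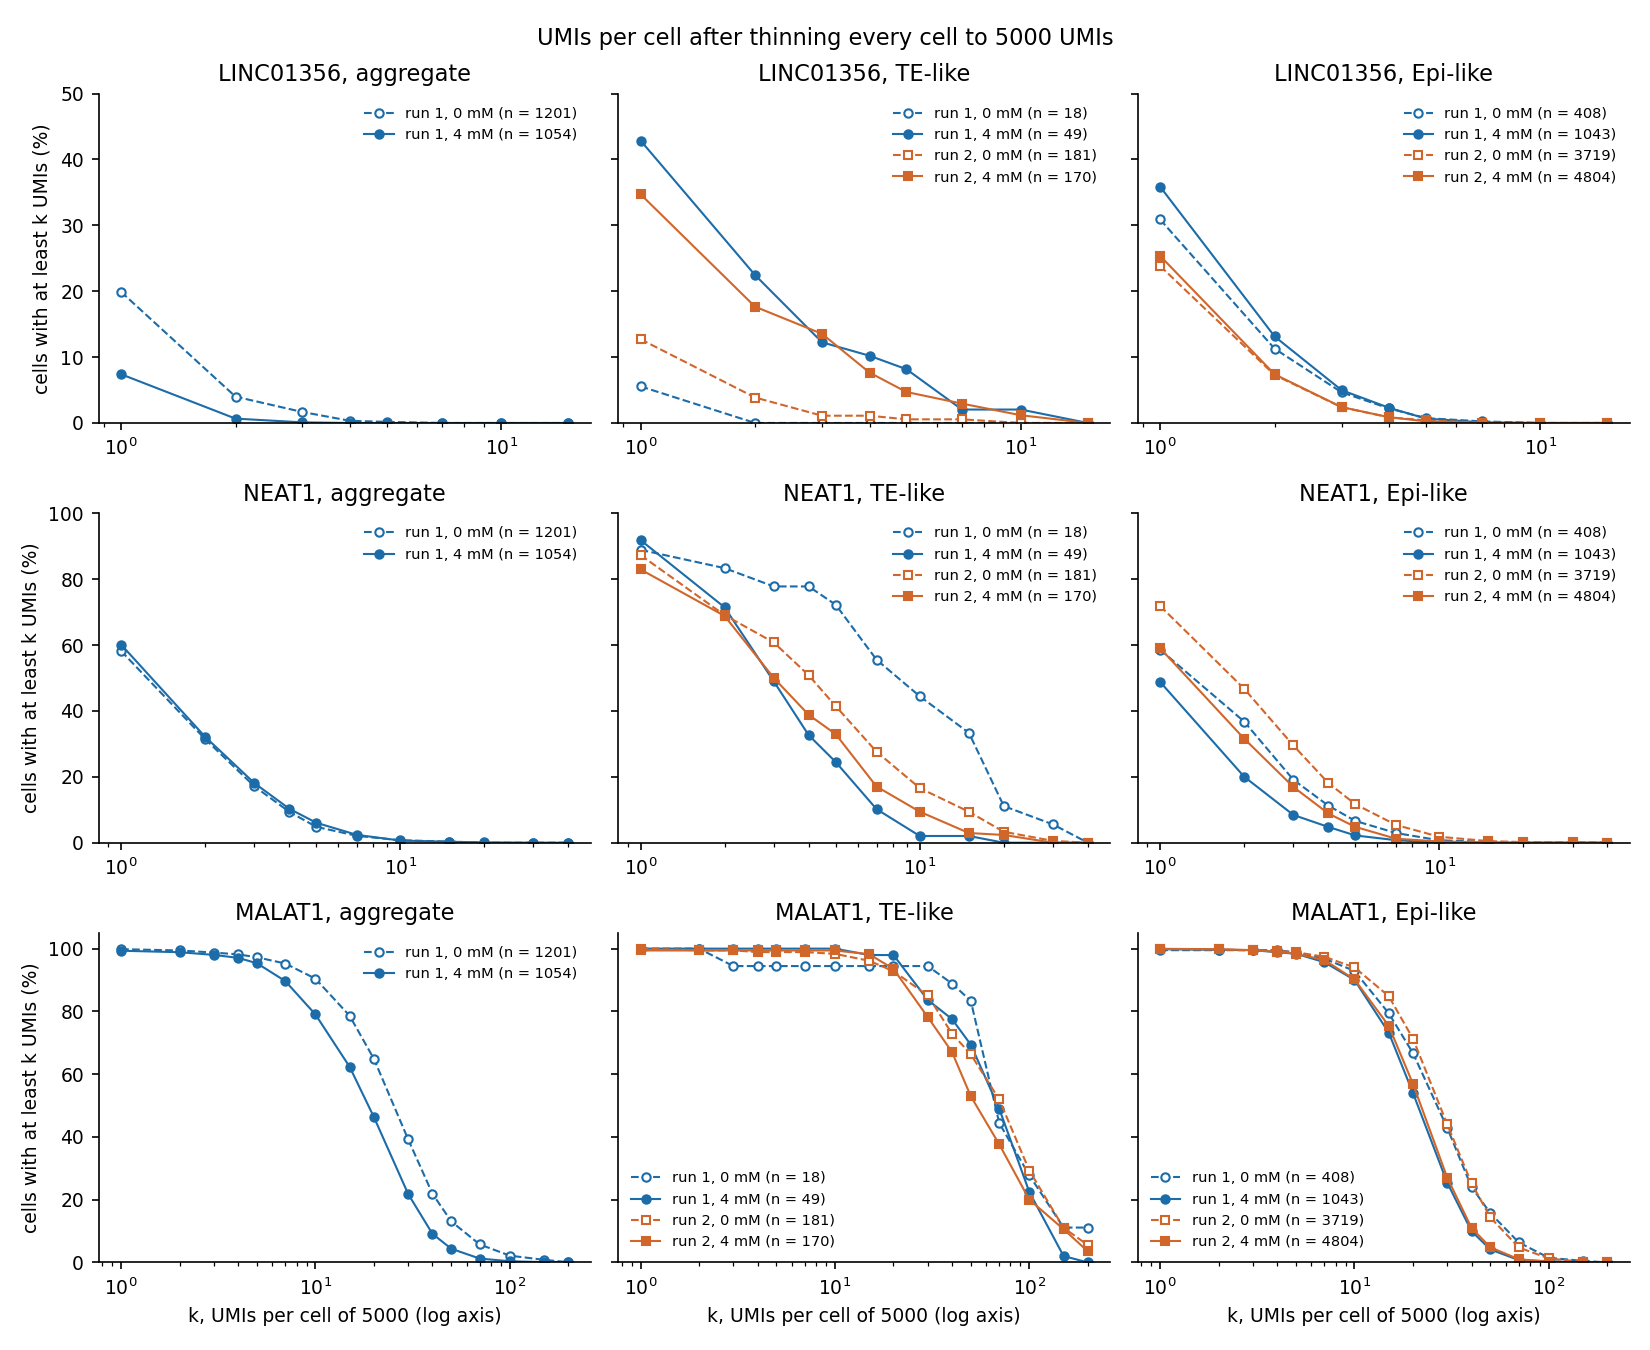
Share of cells in percent that hold at least k UMIs of LINC01356, NEAT1 or MALAT1 (log axis) after each cell was thinned to 5000 UMIs, in aggregates, TE-like and Epi-like cells, with 1 line per arm. The treated TE-like lines for LINC01356 start at 34.7 and 42.9% and the untreated ones at 5.56 and 12.7%. The MALAT1 lines lie to the right in TE-like cells between 15 and 150 UMIs.

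Within TE-like cells LINC01356 went with NR2F2, a nuclear receptor of mature trophectoderm, a split that was chosen with earlier results known. Cells with an NR2F2 UMI held 67.3 and 249 CPM of LINC01356 without and with dm-αKG in run 1 and 124 and 229 CPM in run 2. Cells without one held 10.6, 81.5, 12.6 and 46.7 CPM in the same order. Cells with an NR2F2 UMI numbered 11 of 18 and 45 of 49 in run 1 and 67 of 181 and 128 of 170 in run 2, so the treated arms held more of them. Cells without NR2F2 held few LINC01356 UMIs, 2 and 12 in run 1, where the 12 all came from 1 cell, and 22 and 29 in run 2. Detection of NR2F2 also follows depth, whose part was not tested.

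Nuclear RNAs such as MALAT1 and NEAT1 are commonly raised in damaged cells, in which cytoplasmic RNA has leaked, so cell quality was set beside them. Median mitochondrial shares were 6.1, 3.72, 3.68 and 4.04% in TE-like and 4.40, 4.33, 4.02 and 4.20% in Epi-like cells at 0 and 4 mM of runs 1 and 2. In the 25% of Epi-like cells with the most mitochondrial UMIs MALAT1 was 4885 to 7339 CPM, and in the 25% of TE-like cells with the fewest it was 11803 to 19232 CPM. For NEAT1 these ranges were 176 to 442 and 543 to 1154 CPM. From the 25% of cells with the fewest to the 25% with the most mitochondrial UMIs, the change in NEAT1 differed between arms. In TE-like cells of run 1 NEAT1 went from 1154 to 2896 CPM at 0 mM and from 653 to 500 CPM at 4 mM. In those of run 2 it went from 1139 to 1186 and from 543 to 844 CPM. In Epi-like cells of run 1 it went from 221 to 395 CPM at 0 mM and from 165 to 176 CPM at 4 mM. In those of run 2 it went from 408 to 442 and from 240 to 304 CPM. The values of 1154 and 2896 CPM each rest on 25% of the arm of 18 cells. The part of cell quality in the class and dose differences was not tested. Across single cells NEAT1 followed MALAT1 with a Spearman rho of 0.528 to 0.686 in TE-like, 0.347 to 0.503 in Epi-like and 0.408 and 0.458 in aggregate cells, values given as a description since cells of a library share its depth and RNA.

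Singlets that had been left out for more than 15% mitochondrial UMIs had another makeup. MALAT1 in them was 18337 to 23477 CPM over the 6 arms against 4156 to 6717 CPM in kept cells, NEAT1 was 783 to 1544 against 194 to 442 CPM, and MIAT was 31.5 to 79.8 against 8.50 to 20.5 CPM. LINC01356 was 17.0 to 55.5 CPM in them against 16.1 to 122 CPM in kept cells and was lower in 5 of the 6 arms. The kept share of singlets differed between arms, from 44.8% in the untreated and 73.1% in the treated blastoids of run 1 to 81.0 and 89.0% in run 2 and 71.7 and 55.7% in aggregates. In both blastoid runs the untreated arm, in which NEAT1 and MALAT1 were higher, also lost more singlets to the filters. In aggregates the treated arm lost more, and there MALAT1 and LINC01356 were lower, NEAT1 near level and MIAT higher than in the untreated arm. The part of these losses in the dose differences was not tested.

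**Figure D4:**
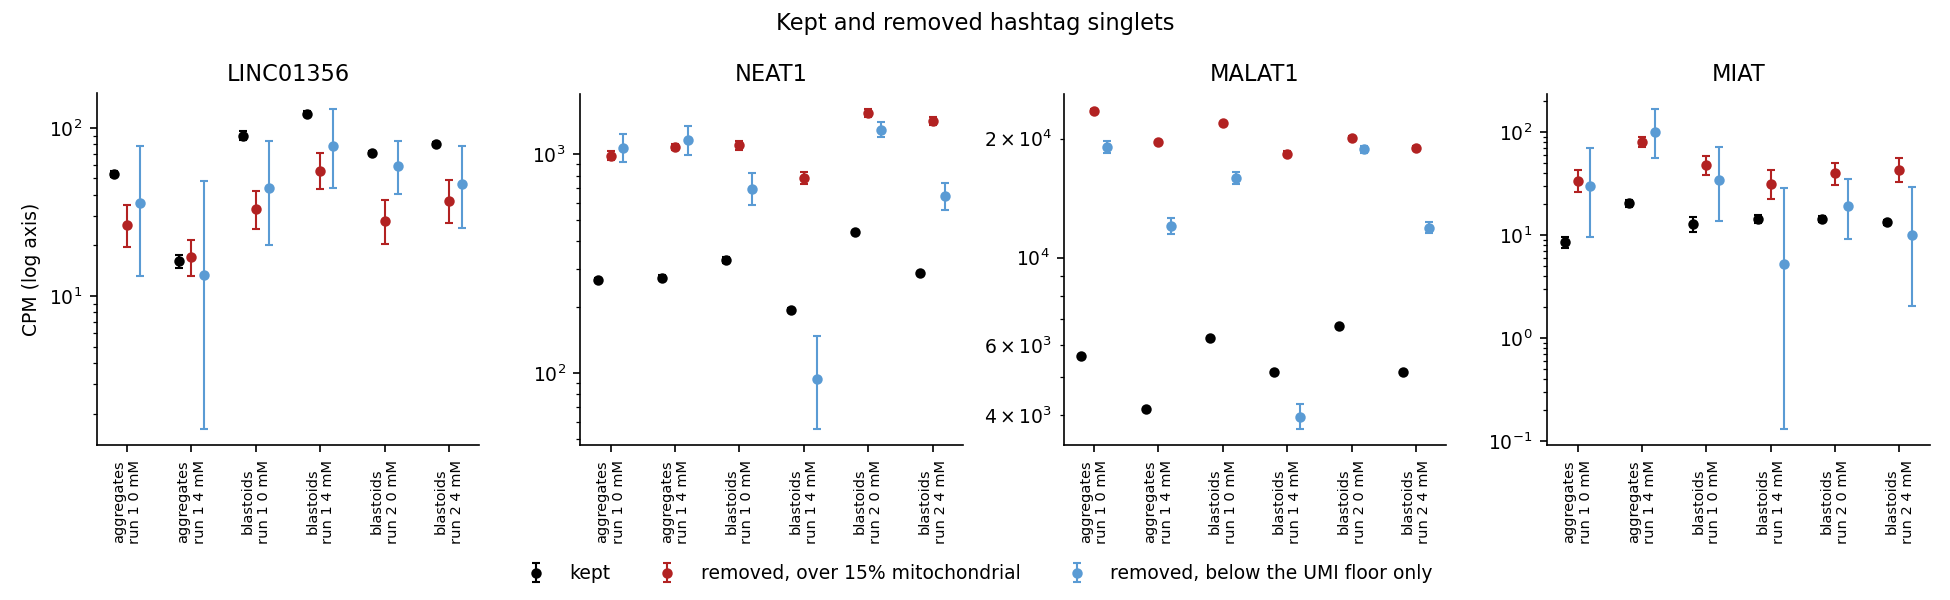
Levels of the 4 RNAs in CPM (log axis) in kept singlets, in singlets over 15% mitochondrial UMIs and in singlets under the UMI floor, with 1 point per arm. In the mitochondria-rich singlets MALAT1 lies between 18337 and 23477 CPM in all 6 arms, above every kept arm.

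The proteins of the bodies in which NEAT1 and MALAT1 sit were read as lists. Like the lists that follow, these were chosen with earlier results of these data known. Of 24 nuclear speckle proteins, 12 rose and 0 fell in TE-like against Epi-like cells (10 called by DESeq2), a share near the 49% of all genes called in either direction, where 23.1% were higher, with a median log2 difference of 0.25 where the median of all genes was -0.04. They were led by the kinase PRPF4B (0.65), the splicing regulator ACIN1 (0.64) and the splicing coactivator SRRM1 (0.62). Of 24 paraspeckle proteins, 7 rose, such as HNRNPR (0.73), HNRNPH3 (0.69) and TAF15 (0.56), and 3 fell, such as HNRNPUL1 (-0.38), with a median of 0.09, so 10 of 24 passed where 49% of all genes did. Of 6 tested splicing factors listed with MIAT, SF1 (0.56) and U2AF2 (0.42) rose and 0 fell, so 2 of 6 passed where 49% of all genes did. Without the arm of 18 TE-like cells these counts were 11 and 0, 7 and 2, and 2 and 0.

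For the dose in TE-like cells 1.44% of 9104 genes passed the edgeR test, 0.648% higher and 0.791% lower at 4 mM. There 0 of 24 paraspeckle proteins, 0 of 24 speckle proteins and 0 of the 6 splicing factors listed with MIAT passed. At an unadjusted p under 0.05 these were 1, 0 and 0, and DESeq2 called 0 in each list. In Epi-like cells, where 8.69% of 17014 genes passed, 5.2% higher and 3.49% lower at 4 mM, 3 of 24 paraspeckle proteins rose and 0 fell. These were SFPQ, which binds NEAT1 (log2 0.39 ± 0.0639), CPSF6, which directs polyadenylation (0.22), and HNRNPH1 (0.21). In the speckle list 6 of 24 rose and 0 fell, among them RBM25 (0.35), CLK1 (0.32), SRSF3 (0.28) and PRPF4B (0.27). Of the splicing factors listed with MIAT, CELF1 rose (0.21). List medians were 0.12, 0.09 and 0.16 against -0.01 over all genes, and DESeq2 called 1, 3 and 0 members. NEAT1 and MALAT1 were lower in the same contrast. The Epi-like counts depend on single arms, with 58 higher and 18 lower genes without the 0 mM arm of run 1, 41 and 14 without its 4 mM arm, 4 and 3 without the 0 mM arm of run 2 and 436 and 301 without its 4 mM arm, in place of 885 and 593.

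Among 32 other abundant nuclear or regulatory noncoding RNAs, 30 were in the tables. In TE-like against Epi-like cells 11 of them rose and 6 fell, with a median of 0.01, so 17 of 30 passed where 49% of all genes did. H19, an imprinted RNA of placenta, rose most (2.84), and DANCR rose (1.22), while the imprinted MEG3 (-2.31) and SNHG14 (-1.90) fell. For the dose in TE-like cells 1 of 29 rose and 1 fell, H19 (2.12) and MEG3 (-1.01), where 0.648% of all genes were higher and 0.791% lower. H19 in TE-like cells was 72.3 CPM untreated and 471 CPM treated in run 1 and 87.9 and 320 CPM in run 2, so that like LINC01356 its treated arms lay above both untreated arms. In Epi-like cells RMRP (0.61) rose and MIR17HG (-0.30) and SNHG7 (-0.22) fell with the dose, 3 of 30 where 8.69% of all genes passed, and DESeq2 called 0. Of 9 pluripotency noncoding RNAs, FOXD3-AS1 was 0 to 5.03 CPM in TE-like and 27.2 to 76.4 CPM in Epi-like cells, and LINC-ROR was 0 to 2.19 and 2.54 to 4.11 CPM. RNAs this low in TE-like cells pass the filter through their Epi-like sums, so no count between classes is given for this list. In Epi-like cells 4 of the 8 tested rose with the dose and 0 fell, FOXD3-AS1 (1.00), MIR302CHG (0.34), ESRG (0.28) and LNCPRESS1 (0.20), where 5.2% of all genes were higher, and DESeq2 called 1.

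Lists of genes that can move with these RNAs were set beside them. Of 15 p53 and stress genes linked to NEAT1 induction, 14 were tested between classes. There the cytokine GDF15 rose (1.13) and 6 fell, among them SESN1 (-1.34), BBC3 (-1.25) and DDIT3 (-1.24), so 7 of 14 passed where 49% of all genes did. For the dose in TE-like cells 0 of 14 passed edgeR, where 1.44% of all genes did. At an unadjusted p under 0.05 there were 3, and DESeq2 called 0. In Epi-like cells SESN2 (0.37) and ATF3 (0.33) rose and 3 fell with the dose, HSPA1A (-0.45) and SESN1 (-0.28) among them, 5 of 15 where 8.69% of all genes passed, and DESeq2 called 1. Mitochondrially encoded genes passed edgeR as higher in TE-like cells for 11 of 13 under its scaling, where 23.1% of all genes were higher. The count was 9 without the arm of 18 cells and 5 by DESeq2. Unscaled, the median mitochondrial share was lower in TE-like than in Epi-like cells in 3 of the 4 arms. For the dose 0 of 13 passed edgeR in either class, where 1.44% of all genes passed in TE-like and 8.69% in Epi-like cells. At an unadjusted p under 0.05 there were 6 in TE-like and 3 in Epi-like cells, and DESeq2 called 0. Trophectoderm markers outside the rule rose with the dose in TE-like cells for 5 of 13, KRT7 (2.02), HAND1 (1.80), VGLL1 (1.01) and KRT19 (0.89) among them, and fell for 0, where 0.648% of all genes were higher, and DESeq2 called 2. Differences were above 0 for 9 and below 0 for 4 of the 13. The part of the makeup of the TE-like class in the LINC01356 dose difference was not tested. Low members of the primitive endoderm list pass the filter through their TE-like sums, so no count between classes is given for it. GATA6 was 49.8 to 103 CPM in TE-like and 0.741 to 1.18 CPM in Epi-like cells. LAMA1 was 104 to 180 CPM in TE-like and 15.2 to 19.6 CPM in Epi-like cells. With the dose, primitive endoderm markers rose by edgeR for 0 of 6 in TE-like cells (2 at an unadjusted p under 0.05, 0 by DESeq2), where 0.648% of all genes were higher. Of 7 in Epi-like cells PDGFRA rose (1.03), where 5.2% of all genes were higher, and DESeq2 called 0. Low epiblast markers outside the rule pass the filter between classes through their Epi-like sums, so no count is given there. With the dose 2 of 11 fell and 0 rose by edgeR in TE-like cells, where 0.791% of all genes were lower, and DESeq2 called 1. In Epi-like cells 6 of 14 rose and 1 fell, where 5.2% of all genes were higher and 3.49% lower, and DESeq2 called 6.

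Genes next to 3 of the RNAs were read beside them. LINC01357, on the other strand and overlapping the 5′ end of LINC01356, was 2.01 to 6.48 CPM over all 10 sums and differed between classes by 0.09 ± 0.333 (edgeR adjusted p = 0.852). SLC16A1, a lactate transporter 61204 bases from LINC01356, rose in TE-like cells (1.25 ± 0.100, edgeR adjusted p = 2.76e-08) but had a dose difference of -0.41 there (edgeR adjusted p = 0.246), opposite in sign to that of LINC01356. PPM1J on the other side differed by -0.23 between classes (edgeR adjusted p = 0.516). Next to NEAT1, FRMD8 (0.15, adjusted p = 0.649) did not pass the edgeR test between classes, and neither did CRYBA4 next to MIAT (0.33, adjusted p = 0.0844). MIATNB, which overlaps MIAT, was 0 to 2.33 CPM. Reads over overlapping genes on the same strand can be shared between them.

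The genes whose levels were most like each RNA over the 10 sums were ranked among 4984 genes by Pearson correlation of log2(CPM + 1), as a description of sums that share arms and classes. For MALAT1 they were TET2, an alpha-ketoglutarate-dependent enzyme that oxidises methylated DNA (r = 0.992), the chromatin remodeller CHD7 (0.987) and MARCKS (0.986). For NEAT1 they were the phospholipid flippase ATP11A (0.982), PTTG1 (0.978) and FASN (0.977). For MIAT they were MCRIP1 (0.973), the actin regulator WDR1 (0.973) and PSRC1 (0.970). For LINC01356 the likeness was weaker, with PPIL1 (0.914), KRR1 (0.911) and the nuclear import factor KPNA4 (0.903).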

How the data were processed

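The authors made 10x Genomics 3′ libraries from 2 runs and deposited raw UMI counts per gene and barcode (Cell Ranger 6.1.2, GRCh38, per the labels) with hashtag counts. The 2 tables held 144122560 and 200278140 UMIs. Arms were called from hashtags with HTODemux (Seurat 5.3.0, quantile 0.99), which left out doublets and negatives, and cells with at least 7000 (run 1) or 5000 (run 2) UMIs and at most 15% mitochondrial UMIs were kept. The arm was the replicate (2 blastoid arms and 1 aggregate arm per dose, each 1 culture). The p-values rest on a spread between arms that is largely pooled over genes. A gene's own spread gave 3 residual degrees of freedom between classes, against 13.3 pooled. For the dose it gave 1, against 26.3 in TE-like and 35.8 in Epi-like cells. For each class the raw counts of an arm's cells were added up, and levels were given as CPM of these sums. Sums were fitted over all genes with edgeR 4.0.16 (TMM, filterByExpr, quasi-likelihood test, threshold 0.05), with the arm as a block between classes and the run as a block for the dose. SE is the log2 difference divided by the square root of F, without sign. The run pairs the arms because both doses were captured together, per the labels, and run deviations at 0 and 4 mM correlated (r = 0.156 over 4611 genes in TE-like and 0.566 over 5094 in Epi-like cells). Fits were tested on simulated data.

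Intervals are 95% Poisson intervals and cover counting error only. Members and gene lists were chosen with earlier results of these data known. Named were the 4 members, the 3 genes most like each over the 10 sums (at least 20 CPM on average), the nearest tested neighbours, and up to 4 genes past the threshold per list by size of difference, or the 2 most abundant where none passed. Alternatives were other scaling, DESeq2 1.42.0, filters, hashtag quantile, class rule, blocks and leaving out each arm. MATR3 stood on 2 rows, of which the more abundant was used, a choice made after its values were seen. A neighbouring gene and some sequences are not reported here.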

Additional observations from a re-analysis of the deposited data

Results flagged for a closer look

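The dose difference of LINC01356 had opposite signs at the 2 stages. The log2 ratio of 4 over 0 mM was -1.70 in the aggregates, against 2.40 and 1.69 in TE-like cells and 0.34 and 0.0931 in Epi-like cells of runs 1 and 2. With 1 aggregate arm per dose the difference between stages was not tested.

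The class difference of LINC01356 had opposite signs at the 2 doses. The log2 ratio of TE-like over Epi-like cells was -1.06 and -0.28 at 0 mM in runs 1 and 2 and 1.01 and 1.32 at 4 mM, and this difference between doses was not tested.

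NEAT1 was at a log2 ratio of 0.0380 between doses in the aggregates, with a counting interval that includes no difference, against -1.17 and -0.28 in TE-like cells and -0.74 and -0.64 in Epi-like cells. This contrast between stages was not tested either.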

How the results depend on the processing

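NEAT1 and MALAT1 stayed higher in TE-like than in Epi-like cells, past the threshold, under all 15 alternatives, and the dose differences of NEAT1 and MALAT1 stayed below 0 and that of LINC01356 in TE-like cells above 0 under all of theirs. The class difference of LINC01356, given without a test, went from 0.76 to 0.54 with library totals alone, to 0.46 by DESeq2 and to 0.33 to 1.01 when arms were left out, lowest without the 4 mM arm of run 2. Between classes, library totals alone left 1745 genes higher. For the dose in TE-like cells, 59 genes higher and 72 lower became 92 and 117 with DESeq2 size factors, 12 and 18 by DESeq2's own test, and 98 and 117 at a mitochondrial limit of 10%. The lower genes numbered 40 at a hashtag quantile of 0.95 and 111 with strict classes. Leaving out arms gave 19 to 90 higher and 10 to 107 lower genes. For the dose in Epi-like cells, 885 higher and 593 lower genes became 162 and 56 by DESeq2's own test, and leaving out arms gave 4 to 436 and 3 to 301. Without the run as a replicate block, 21 higher and 16 lower genes passed in TE-like and 15 and 1 in Epi-like cells. In fits without an arm, which have no run term and take a lone arm to vary like the other dose, the dose difference of MALAT1 in TE-like cells was -0.37 to -0.13, that of LINC01356 in Epi-like cells -0.0724 to 0.50 and that of NEAT1 in Epi-like cells -1.09 to -0.37. Causes were not tested. Of 240 recomputed levels, 208 stayed within their counting interval and 32 moved. Some filters left the cells of an arm unchanged, so its levels could not move there. With the mean over cells in place of the sum, 26 of 40 levels stayed. Of 40 shares of cells 26 moved on thinning. Low counts limit MIAT in TE-like cells and LINC01356 in the arm of 18 cells.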

Other observations

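Singlets under the UMI floor differed between arms in these RNAs. In those of the treated blastoids of run 1, MALAT1 was 3966 CPM and NEAT1 93.6 CPM, with a median mitochondrial share of 0.806%, which set this arm apart, and in treated aggregates the median share was 1.03%. A single treated Epi-like cell of run 2 held 310 NEAT1 UMIs, the highest count of that RNA in a kept cell.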
